A study of Gallus gallus with 16 samples.

Results

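Photoreceptor transcription factors are the DNA-binding proteins that set up and maintain rods and cones, and 6 of them were followed across form deprivation and recovery in the chick eye. They were the nuclear receptors NR2E3, RORB and RXRG, the homeodomain protein OTX2, the zinc finger protein PRDM1 and the basic helix-loop-helix protein NEUROD1. The names came from their known roles, but all 6 were chosen with earlier results of these data known. NR2E3 was also selected on its large difference between recovery times in these counts, so its values are given as a description with no test. A gene entered if at least 4 of the 16 libraries held at least 10 counts. All 6 genes passed, out of 11334 genes tested and 17108 in the deposited table. NR2E3 reached 10 counts in 13 libraries and the others in all 16. The table lists 5 of them under these symbols, and PRDM1 (ENSGALG00000015388) under its older name BLIMP-1.

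A photoreceptor is built by factors that act in layers. OTX2 commits precursors to the photoreceptor and bipolar cell fates and is also needed by the pigment epithelium, and in the mouse PRDM1 acts after it and represses bipolar genes in young photoreceptors. RORB acts in the mouse upstream of the rod programme, NR2E3 activates rod genes and represses cone genes in mouse and human rods, RXRG takes part in the choice of cone opsin in mouse cones, and NEUROD1 is needed for the survival of mouse photoreceptors. The chick retina is rich in cones of several types. Several of these factors have other uses, since PRDM1 also drives the maturation of plasma cells and OTX2, RORB and NEUROD1 are made in other retinal neurons.

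RNA was sequenced from the retina, retinal pigment epithelium (RPE) and choroid of the right eye of 16 male Leghorn/New Hampshire chicks, 4 in each of 4 groups and 1 library per chick. No-Lens controls were separate chicks that wore no occluder, FDMR 0 h chicks had worn a translucent occluder for 7 days and were collected at its removal, and FDMR 6 h and FDMR 24 h chicks then had 6 h or 24 h of unobstructed vision. The 4 chicks of a group were picked out of 8 for comparable axial length. The labels give post-hatch day 20, or day 21 for the 24 h group, whereas the treatment protocol starts occlusion on day 5 and collects 7 days later. Occluders came off at 10 am, so the 6 h group was collected at about 4 pm and the other groups in the morning, and for every comparison with the 6 h group the time of recovery and the hour of day cannot be told apart.

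Counts on genes per chick ranged from 3039798 to 4351598 in controls, 3411316 to 4816425 at 0 h, 3969595 to 4631032 at 6 h and 1553717 to 4363296 at 24 h, where chick 29 was the shallowest. Values are CPM (read counts scaled to library size with TMM factors). Scaled to library size without these factors, 3 counts equalled 0.623 to 1.93 CPM. Within groups, the leading axis of differences between chicks held 39.5% of the variance of log2 CPM over the 11334 genes. Chick 3 of the controls, chick 9 at 0 h and chick 26 at 24 h stood at its low end, and the axis correlated at -0.77 with the percentage of reads on no annotated gene (n = 16 chicks, as deviations from group means). The tissue held photoreceptor RNA in every group, with summed levels of 13 rod genes averaging 5222 to 5709 CPM and of 16 cone genes 8030 to 10461 CPM.

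NR2E3, the receptor known from mouse and human rods, was the rarest of the 6 in counts and the one with the largest difference. It stood at 2.52, 7.58, 7.29 and 9.92 CPM in control chicks 3, 4, 6 and 7, and at 7.12, 6.90, 9.79 and 11.2 CPM in 0 h chicks 9, 10, 12 and 13. In 6 h chicks 18, 19, 21 and 23 it stood at 0.245, 2.57, 1.03 and 3.89 CPM, which were 1, 12, 4 and 17 counts. All 4 chicks at 6 h lay below all 4 at 0 h and all 4 at 24 h, but control chick 3 lay within the range of the 6 h chicks. At 24 h the values were 8.16, 17.3, 10.3 and 15.8 CPM in chicks 26, 29, 30 and 32, so 2 of the 4 lay above every chick of the other groups.

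The group means of NR2E3 were 6.83 ± 3.10, 8.74 ± 2.08, 1.93 ± 1.62 and 12.9 ± 4.33 CPM (SD, n = 4) in controls and at 0 h, 6 h and 24 h. The fitted log2 fold change was -2.14 (standard error 0.48, 95% interval -3.13 to -1.14) from 0 h to 6 h, 2.64 (0.47) from 6 h to 24 h and 0.50 (0.40) from 0 h to 24 h. These comparisons share chicks, since the 6 h group enters both of the former and the 0 h group the latter. NR2E3 was selected on its difference in these counts, so the interval does not serve as a test against 0. Pooled over a group, 34 counts at 6 h stood against 138 at 0 h, a ratio of 0.224 with a 95% counting interval of 0.149 to 0.328, which covers counting error only. The coefficient of variation between the 4 chicks at 6 h was 83.9%, beside 34.3% that counting alone would give at their mean count. The counting intervals ran from 0.00621 to 1.37 CPM in chick 18 and from 2.27 to 6.22 CPM in chick 23. In bulk tissue, fewer cells of a type and less RNA per cell cannot be told apart.

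**Figure D1:**
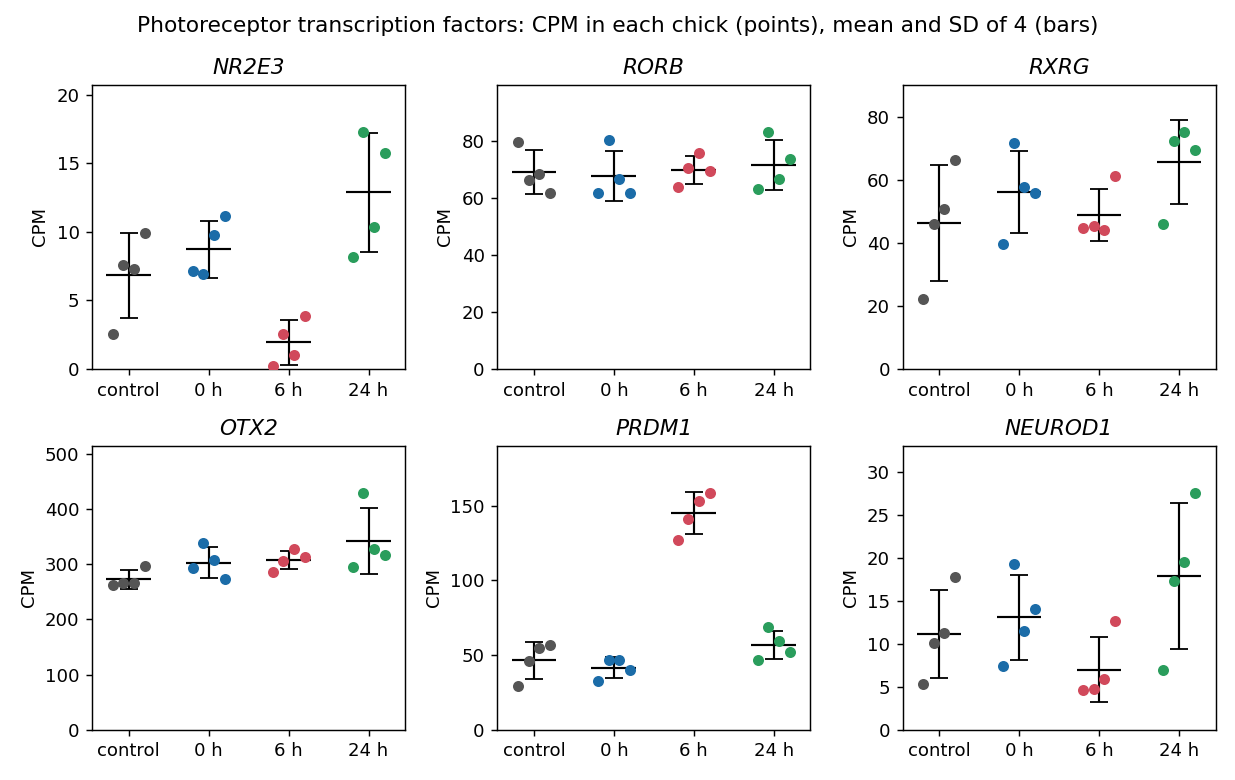
CPM of the 6 genes (vertical axis, starting at 0) in each chick of the 4 groups, with points for chicks and bars for the mean and SD of 4. PRDM1 at 6 h (127 to 158 CPM) lies above all other chicks. NR2E3 at 6 h (0.245 to 3.89 CPM) lies below the 0 h and 24 h chicks but overlaps control chick 3 (2.52 CPM). RORB lies between 61.7 and 83.0 CPM throughout.

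RORB, the nuclear receptor that mouse rods need before NR2E3 is switched on, was at nearly the same level in all groups. It stood at 79.7, 66.4, 68.3 and 61.8 CPM in controls and at 61.9, 80.2, 66.5 and 61.7 CPM at 0 h. At 6 h it stood at 64.0, 70.5, 75.9 and 69.3 CPM, and at 24 h at 63.0, 83.0, 66.7 and 73.7 CPM. The groups overlapped in every comparison, and the means ran from 67.6 ± 8.72 CPM at 0 h to 71.6 ± 8.81 CPM at 24 h (SD, n = 4). The fitted log2 fold changes lay between -0.03 and 0.07, and the widest 95% intervals reached -0.26 and 0.30. Its biological coefficient of variation was 9.38%, against 36.2% for NR2E3.

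RXRG, the retinoid X receptor of cones, varied more between chicks than between groups. Control chicks 3, 4, 6 and 7 had 22.1, 46.0, 50.7 and 66.4 CPM, and 0 h chicks had 39.7, 71.6, 57.9 and 55.8 CPM. At 6 h the values were 44.9, 45.4, 44.0 and 61.3 CPM, and at 24 h 46.0, 72.4, 75.2 and 69.7 CPM. The groups overlapped throughout, though 3 of the 4 chicks at 24 h lay above all controls. The largest fitted difference was 0.49 (standard error 0.24, 95% interval -0.02 to 1.003) between 24 h and controls, which did not pass the test (adjusted p = 0.379 from edgeR). From 0 h to 6 h it was -0.20 (0.24), and from 6 h to 24 h 0.42 (0.24, adjusted p = 0.411). The latter passed without chicks 3, 9 and 26 together, a setting chosen after the data were seen (0.57, adjusted p = 0.0173).

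OTX2, the homeodomain factor of photoreceptors, bipolar cells and RPE, had the most counts of the 6. Controls stood at 262, 266, 266 and 298 CPM and 0 h chicks at 292, 338, 308 and 273 CPM. The 6 h chicks stood at 287, 306, 327 and 313 CPM and the 24 h chicks at 296, 429, 327 and 317 CPM. The highest value of the 16 belonged to chick 29, the shallowest library, and the other 24 h chicks lay within the range of the 0 h chicks. The fitted difference between 24 h and controls was 0.32 (standard error 0.10, 95% interval 0.11 to 0.52), with an unadjusted p of 0.00421 and an adjusted p of 0.139 from edgeR over all genes, so OTX2 was not called. From 0 h to 6 h, when NR2E3 and PRDM1 lay farthest from their other levels, the log2 fold change of OTX2 was 0.02 (95% interval -0.18 to 0.23).

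PRDM1, the repressor that holds young mouse photoreceptors to their fate, was high at 6 h. Of the 5 genes tested, it alone passed a false discovery rate of 5%. It stood at 29.1, 45.7, 54.7 and 56.5 CPM in controls and at 32.3, 46.9, 46.9 and 39.9 CPM at 0 h. At 6 h it stood at 127, 141, 153 and 158 CPM, and at 24 h at 46.7, 68.4, 59.1 and 52.3 CPM. Every chick at 6 h lay above every other chick, with a gap from 68.4 CPM in chick 29 to 127 CPM in chick 18, and the other 3 groups overlapped.

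In edgeR's quasi-likelihood test, PRDM1 rose 3.50-fold from 0 h to 6 h (log2 fold change 1.81, standard error 0.16, adjusted p = 1.33e-06), from 41.5 ± 6.98 to 145 ± 13.9 CPM (SD, n = 4). By p it ranked 13 among the 11334 genes of that comparison. It was 3.11-fold higher at 6 h than in controls (1.64, standard error 0.16, adjusted p = 3.84e-06). From 6 h to 24 h its log2 level fell by 1.38 (standard error 0.16, adjusted p = 9.82e-05), to 56.6 ± 9.34 CPM. Between 24 h and 0 h the difference was 0.43 (0.17), with an unadjusted p of 0.0237 and an adjusted p of 0.398, and between 0 h and controls -0.17 (0.17). The direction of PRDM1 at 6 h was opposite to that of NR2E3 in the same chicks.

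PRDM1 is also a plasma cell gene, so markers of blood cells stand beside it. Of the 4 B and plasma cell genes and the 8 leukocyte genes tested, edgeR's quasi-likelihood test called 0 from 0 h to 6 h. It called 3.19% of all genes, so 0 of lists this short tells little. In that test 0 had an unadjusted p under 0.05, and 0 were called by limma-voom, DESeq2 or the likelihood ratio test of edgeR. Of the 8 leukocyte genes 7 had a positive log2 fold change (median 0.14), and of the 4 B and plasma cell genes 2 had. From 6 h to 24 h the quasi-likelihood test again called 0, where 1.94% of all genes were called. In each list 1 gene had an unadjusted p under 0.05 there. A blood cell source of PRDM1 was not tested. The summed level of the B and plasma cell list ran from 130 to 167 CPM at 6 h and from 135 to 162 CPM at 0 h. Most of that sum was XBP1, a stress factor that many cell types make, with 7777 of the list's 9417 counts, whereas JCHAIN had 281. Of the 11 genes of that list in the table, 5 had fewer than 5 counts in each library, namely POU2AF1, IRF4, CD79B, PAX5 and MZB1, the last at 0 counts throughout. The summed level of the leukocyte list ran from 223 to 244 CPM at 6 h and from 194 to 230 CPM at 0 h.

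NEUROD1, the survival factor of mouse photoreceptors, followed NR2E3 in the order of its group means but with a wide spread. It stood at 5.32, 10.1, 11.3 and 17.8 CPM in controls and at 7.39, 19.3, 11.5 and 14.0 CPM at 0 h. At 6 h it stood at 4.66, 4.71, 5.92 and 12.6 CPM, and at 24 h at 6.92, 17.3, 19.5 and 27.5 CPM. Of the 6 h chicks 3 lay below all 0 h and 24 h chicks, and chick 23 lay within both ranges.

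The log2 fold change of NEUROD1 from 0 h to 6 h was -0.90 (standard error 0.43, 95% interval -1.80 to -0.0029), with an adjusted p of 0.427 from edgeR. From 6 h to 24 h it was 1.35 (standard error 0.42, 95% interval 0.46 to 2.24), with an unadjusted p of 0.00524 and an adjusted p of 0.128, and it did not pass. That call rested on single libraries. NEUROD1 passed without 6 h chick 23 (1.80, adjusted p = 0.0413), without 24 h chick 26 (1.64, adjusted p = 0.0346) and without chicks 3, 9 and 26 together (1.65, adjusted p = 0.00370), and over all 26 alternatives its adjusted p reached from 0.00370 to 0.367.

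**Figure D2:**
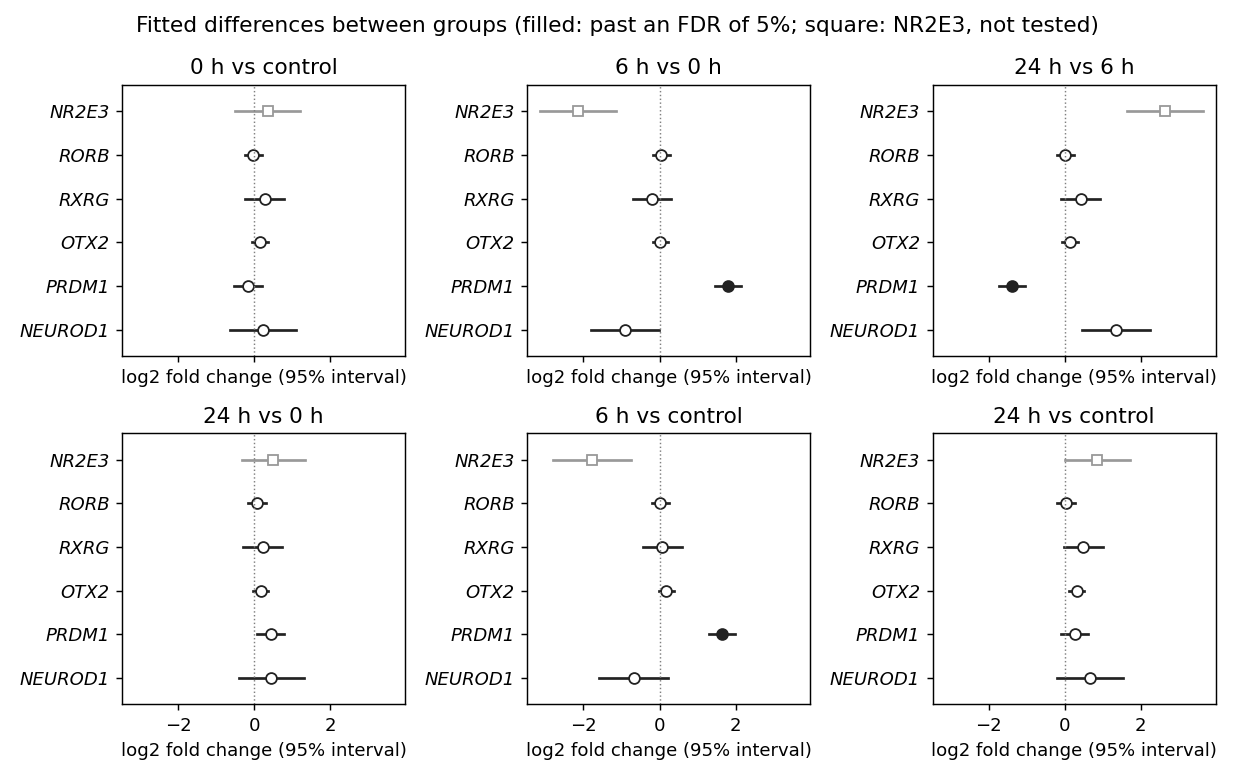
Fitted log2 fold change of each gene (horizontal axis) with its 95% interval in the 6 comparisons of 2 groups, where filled circles passed a false discovery rate of 5% and squares mark NR2E3, which was not tested. The filled circles are PRDM1 at 6 h vs 0 h (1.81), 24 h vs 6 h (-1.38) and 6 h vs control (1.64).

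Counted by comparison, a gene is called when it passed a false discovery rate of 5% over the 11334 genes. The 5 tested members were chosen with earlier results of these data known, so their counts are not free of selection. From 0 h to 6 h, 1 of the 5 tested members was called (PRDM1), where 3.19% of all genes were called. From 6 h to 24 h it was again 1 of 5, with 1.94% of all genes, and between 6 h and controls 1 of 5, with 2.74%. Between 0 h and controls edgeR called 0 of the 5, and 0 reached an unadjusted p under 0.05, where 0.0265% of all genes were called. Between 24 h and 0 h edgeR called 0 of the 5, with PRDM1 at an unadjusted p under 0.05 and 1.12% of all genes called. Between 24 h and controls it called 0 of the 5, with OTX2 at an unadjusted p under 0.05 and 1.33% of all genes called. The likelihood ratio test, limma-voom and DESeq2 also called 0 of the 5 in these 3 comparisons. In the joint test of both recovery times against 0 h, PRDM1 was called (adjusted p = 1.71e-06) and NEUROD1 was next (adjusted p = 0.203), against 3.71% of all genes. After occlusion alone, a difference of the 5 was not detected with 4 chicks per group and their spread. The 95% intervals reached from -0.65 to 1.08 for NEUROD1 and from -0.53 to 0.19 for PRDM1.

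Within groups several of the members varied together, and RORB did so with OTX2 alone (r = 0.61). Over all 16 chicks RXRG and PRDM1 correlated at 0.18, but as deviations from their group means at 0.91, and at 0.81 without control chick 3. RXRG and NEUROD1 correlated at 0.87 within groups, PRDM1 and NEUROD1 at 0.71, and NR2E3 and PRDM1 at 0.63 within groups against -0.58 over all chicks. RORB correlated at -0.06 with NR2E3, -0.07 with RXRG, 0.06 with PRDM1 and 0.14 with NEUROD1 within groups, and at 0.23 to 0.65 with these without control chick 3. These are descriptions over 16 chicks, whose points share each chick's library. Chick 3 had the lowest control value for 5 of the 6 genes, chick 18 the lowest 6 h value for 5, and chick 26 the lowest 24 h value for all 6.

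Chicks 3, 26 and 9 had the lowest scores on the leading axis of all genes (-0.557, -0.380 and -0.378), and chick 18 stood nearer the middle (-0.0985). RXRG followed that axis at 0.96, PRDM1 at 0.93, NEUROD1 at 0.87, NR2E3 at 0.69 and OTX2 at 0.54, and RORB stood at 0.06. The value of RORB leans on chick 3, lowest on the axis, where RORB lay 0.21 above its group mean on the log2 scale. Its correlation with the axis without chick 3 was not computed. An absolute correlation above 0.8 was reached by 11.3% of the genes tested. Along the axis PRDM1 deviated from its group mean by -0.62 in chick 3 to 0.32 in chick 7 on the log2 scale. Its log2 fold change from 0 h to 6 h was 1.81. What part the axis has in the spread of RXRG, NEUROD1 and PRDM1, or in the differences between groups, was not tested.

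**Figure D3:**
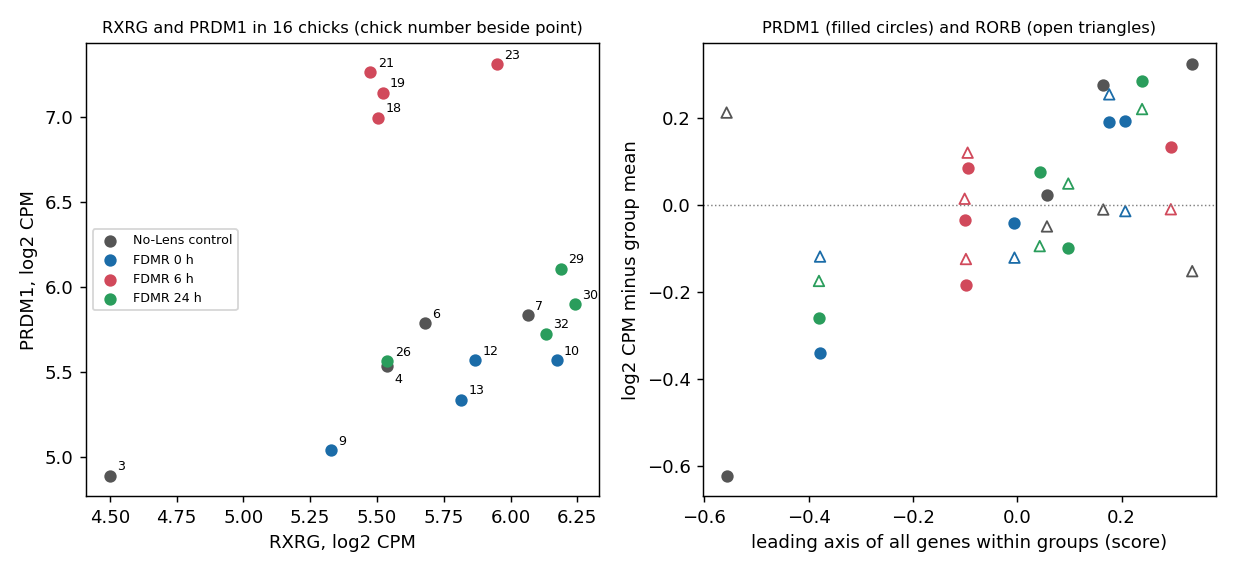
Left, log2 CPM of RXRG (horizontal) and PRDM1 (vertical) in 16 chicks, coloured by group, where the 4 chicks at 6 h lie above the rest and the other chicks run from lower left to upper right. Right, deviation of log2 CPM from the group mean against the score of the leading within-group axis, for PRDM1 (filled circles, r = 0.93) and RORB (open triangles, r = 0.06). RORB in control chick 3 lies high (0.21) at the low end of the axis, and r without that chick was not computed.

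Among all genes tested, those whose log2 CPM over the 16 chicks was most like that of a member were listed as a description. NR2E3 was closest to SYNPO2L (r = 0.89), cone arrestin ARR3 (0.88), MFAP2 (0.86), PPARGC1B (0.85) and RD3 (0.85), a gene that photoreceptors need to control guanylate cyclase. PRDM1 was closest to the orphan nuclear receptor ESRRB (0.95), the kinase CLK3 (0.95), the clock activator ARNTL (0.95), DGAT2 (0.95) and MCF2L2 (0.94). The neighbours of PRDM1 were less like it within groups (0.44 to 0.78), where the differences between groups were removed. Those of NR2E3 stood at 0.58 to 0.86 within groups. Over all 16 chicks their r draws on the difference on which NR2E3 was selected. RXRG was closest to SBF1 (0.98), SARS (0.98) and BCL9L (0.97), which also held within groups (0.97 to 0.98). NEUROD1 was closest to C12ORF57 (0.96), PACSIN1 (0.93) and SMUG1 (0.93). Among the genes closest to OTX2 were HMX1 (0.87) and SMARCC1 (0.86), and RORB was closest to ZCCHC6 (0.85), RAB3C (0.81) and EVL (0.81).

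Of 33 other regulators of photoreceptor development or maintenance, 25 were found in the table and 19 were tested. From 0 h to 6 h, ESRRB, which rods need for survival in the mouse, rose from 83.8 ± 9.14 to 186 ± 12.0 CPM (1.15, standard error 0.09, adjusted p = 2.23e-07). MEF2C, a MADS-box factor, fell by 0.42 (standard error 0.10, adjusted p = 0.0215), from 54.9 ± 3.52 to 41.1 ± 4.51 CPM. The quasi-likelihood test and the other 3 tests each called 2 of the 19, the median log2 fold change of the 19 was -0.32 against 0.00 for all genes, and 15 of the 19 had a negative value. The bHLH factor NEUROD4 had -0.70 (adjusted p = 0.143) and the large Maf factor MAFA -0.77 (adjusted p = 0.315). Between 0 h and controls 13 of the 19 had a positive value (median 0.13). Between 6 h and controls 14 had a negative value (median -0.11).

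From 6 h to 24 h, ESRRB fell by 0.73 (standard error 0.09, adjusted p = 0.000145) to 112 ± 6.98 CPM and MEF2C rose by 0.41 (0.10, adjusted p = 0.0389) in edgeR's quasi-likelihood test, which called 2 of the 19, as did limma-voom, whereas DESeq2 and the likelihood ratio test called 4 each. ESRRB was still higher at 24 h than at 0 h (0.42, standard error 0.09, adjusted p = 0.0274) and than in controls (0.40, standard error 0.09, adjusted p = 0.0317). PRDM1 was not called in either, at 0.43 (standard error 0.17) and 0.26 (0.17). Against 0 h its estimate was about as large as that of ESRRB, with a larger standard error. Among 28 transcription factors of inner retinal neurons and glia that were tested, such as PAX6 of amacrine cells, edgeR's quasi-likelihood test called 0 in each of the 6 comparisons. It called 0.0265% to 3.19% of all genes in these comparisons, so 0 of 28 tells little. From 0 h to 6 h, 24 of the 28 had a negative log2 fold change (median -0.18). Between 0 h and controls 25 of the 28 had a positive one (median 0.14). Between 6 h and controls 17 had a negative one (median -0.04) and 11 a positive one. Between 0 and 8 of the 28 had an unadjusted p under 0.05, and between 24 h and controls DESeq2 and the likelihood ratio test called 1 each.

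Listed rod and cone genes, taken as markers of these cell types, moved in both directions from 0 h to 6 h. Whether the 6 factors regulate them in the chick was not tested. Of 13 rod genes tested from 0 h to 6 h, 4 rose and 1 fell in edgeR's quasi-likelihood test, where 2.00% of all genes were called higher and 1.19% lower. The rod channel subunit CNGB1 rose from 36.5 ± 7.98 to 106 ± 12.4 CPM (1.54, standard error 0.23, adjusted p = 0.000423), the exchanger SLC24A1 by 1.15 (0.19) and GUCA1B by 0.48 (0.09). PDE6B, a rod phosphodiesterase subunit, fell by 1.24 (standard error 0.09, adjusted p = 1.38e-07), from 377 ± 28.4 to 160 ± 18.9 CPM.

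Of 16 cone genes tested from 0 h to 6 h, 10 fell and 1 rose in the same test. The cone channel subunit CNGA3 fell by 1.19 (standard error 0.11, adjusted p = 2.66e-06), from 194 ± 25.5 to 85.3 ± 2.64 CPM, and ARR3 by 1.11 (0.13, adjusted p = 1.71e-05), from 1426 ± 177 to 662 ± 79.5 CPM. GRK7, the cone opsin kinase, fell by 0.96 (0.10). The gene that rose (1.44, standard error 0.24) is listed as PRA1, and its accession belongs to OPN1MSW in RefSeq while its description in the table names another opsin, so its identity is uncertain. Cone genes and NR2E3 were low in the same group, and their relation to NR2E3 was not tested. From 0 h to 6 h 3.19% of all genes were called, a share at which 0 of a short list tells little. Of the other retinal lists, edgeR called 1 pigment epithelium gene higher and 1 lower of 16 from 0 h to 6 h, and 0 of 9 bipolar, 0 of 13 amacrine and horizontal, 0 of 8 ganglion, 0 of 9 Mueller glia, 0 of 5 striated muscle and 0 of 11 melanin-producing cell genes. In that order 3, 2, 1, 1, 2 and 2 of the latter had an unadjusted p under 0.05, and the other tools called 0. In the same order 7, 7, 5, 6, 2 and 8 had a negative log2 fold change. The list medians were -0.25, -0.06, -0.07, -0.16, 0.32 and -0.12 in this order. Between 6 h and controls they were -0.05, -0.02, -0.03, -0.08, 0.02 and -0.09.

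**Figure D4:**
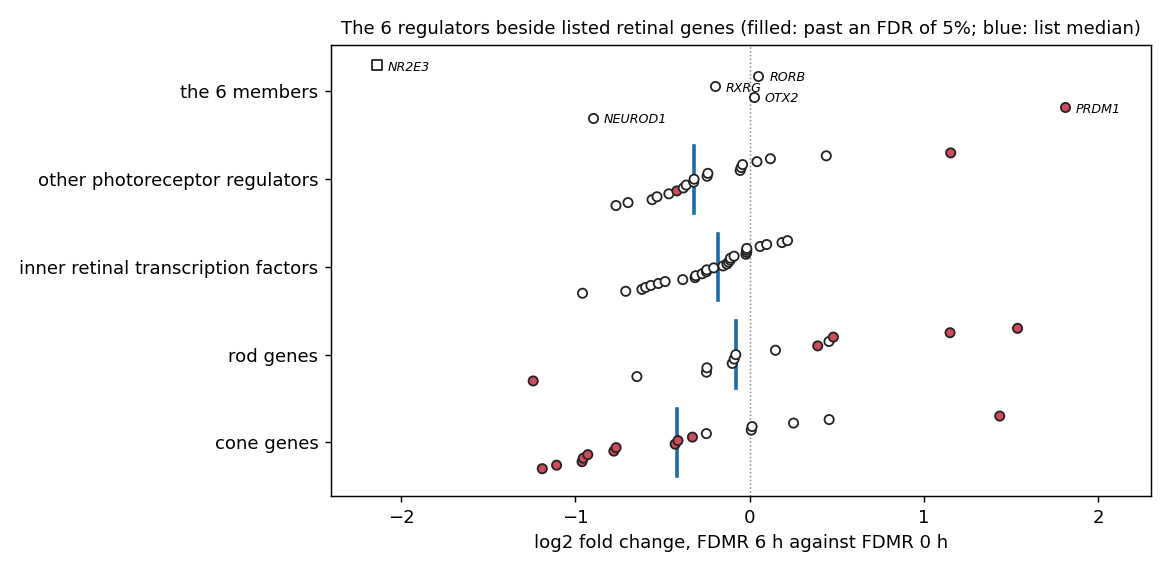
Log2 fold change from FDMR 0 h to FDMR 6 h (horizontal axis) of the 6 members and of listed genes that were tested, where filled points passed a false discovery rate of 5% and blue lines are list medians. PRDM1 (1.81) and NR2E3 (-2.14) lie at the ends, and 10 of the 16 cone genes are filled on the negative side. The 28 inner retinal factors hold no filled point, where 3.19% of all genes were called, and 24 of these factors lie on the negative side. Against controls, which are not plotted, 17 of the 28 were lower at 6 h.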

How the data were processed

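Gene counts were deposited by the authors for 17108 genes, without normalization. Per the sources, reads from stranded mRNA libraries (single-end, 100 bases) were trimmed with cutadapt and Trimmomatic, aligned by TopHat2 and Bowtie2 against galGal4 and counted with HTSeq. The annotation release and strand option are not given in the sources used here, so overlapping genes are uncertain. A further 6 lines name no gene and were left out of library sizes and tests. They held 41.9% to 45.9% of a column's total.

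Counts were fitted in R 4.3.3 with edgeR 4.0.16 (TMM, quasi-likelihood, all 16 libraries in the fit) for genes that reached 10 counts in 4 or more libraries, with Benjamini-Hochberg adjustment over all 11334 genes and a false discovery rate of 5%. Log2 CPM used a prior count of 2. Standard errors were derived from the F statistic. The common dispersion was 0.0157. P-values test differences between group means against the spread between chicks. Replicate libraries differed beyond sampling noise (chi-square per gene 2.49 to 10.6). The labels number chicks without shared replicate numbers.

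The alternatives were RLE size factors, DESeq2 1.42.0, edgeR's likelihood ratio test, limma-voom (limma 3.58.1), a robust fit, no filter, a filter at 1 CPM in 4 libraries, only the groups compared, a false discovery rate of 1%, and leaving out each chick. Left out after the data were seen were chicks 3 and 29 together, and chicks 3, 9 and 26 together. The fits were also run on simulated counts, where every gene had the common dispersion. That is a biological coefficient of variation of 12.5%, against 36.2% for NR2E3, 38.7% for NEUROD1 and 23.3% for RXRG. How the fits behave for genes of such spread was not tested. Figures were made in Python 3.11.15 with matplotlib 3.10.9.

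The members and the 13 gene lists were chosen with earlier results of these data known. Named in the text are the members, at most 4 called genes of a list per comparison by size of change, and the genes most like a member (5 for NR2E3 and PRDM1, up to 3 for others). NEUROD4, MAFA, PAX6 and the blood cell genes were named after their values were seen. Symbols were matched by the table, and 86 genes by accession in RefSeq (GRCg7b), whose coordinates were not used. Listed genes that matched no symbol, and promoter and protein sequences, were not analysed here. A few genes are not reported here.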

Additional observations from a re-analysis of the deposited data

Results flagged for a closer look

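In 3 of 24 groups of 4 chicks (6 genes in 4 groups), 1 chick lay far from the other 3 by Dixon's criterion at 95%, which chance gives in about 1 of 20 groups. OTX2 stood at 298 CPM in control chick 7, against 262 to 266 CPM in the other controls. RXRG stood at 61.3 CPM in 6 h chick 23, against 44.0 to 45.4 CPM in the other chicks at 6 h. NEUROD1 stood at 12.6 CPM in the same 6 h chick 23, against 4.66 to 5.92 CPM in the others. Chick 23 also had the highest score of the 6 h chicks on the leading within-group axis (0.295, the others -0.101 to -0.0952) and the highest NR2E3 and PRDM1 values of its group, and what part the axis has in these values was not tested.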

How the results depend on the processing

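PRDM1 stayed called under all 26 alternatives, with a log2 fold change of 1.71 to 1.87 at 6 h vs 0 h (highest adjusted p 1.76e-05), -1.46 to -1.30 at 24 h vs 6 h (highest adjusted p 0.000825) and 1.47 to 1.75 at 6 h vs control (highest adjusted p 0.000157). NR2E3 ranged from -2.70 to -1.78, 2.29 to 3.20 and -2.35 to -1.43. It was selected on its difference in these same counts, so its unchanged direction is a description and no support. Leaving out 1 chick at a time, 1 to 2 members were called at 24 h vs 6 h, where NEUROD1 (1.03 to 1.80) joined without 6 h chick 23 or 24 h chick 26. Without chicks 3, 9 and 26 together, 3 members were called at 24 h vs 6 h and 3 in the joint test, with RXRG and NEUROD1 added. No paired analysis was possible because each group was a separate set of chicks with 1 library per chick. For NR2E3, which has no call, a value counted as unchanged if it moved by less than the larger SD between chicks of the groups compared. This limit is wide, since the SD of log2 CPM at 6 h was 1.12. All 26 values of NR2E3 in each comparison were unchanged by it, which is no support. For the other members, unchanged meant the same direction and call. Of 936 values of a member in a comparison, those of NR2E3 included, 909 were unchanged, 4 became called and 23 changed sign, none of them a called value. These were RORB at 24 h vs 6 h with limma-voom (-0.0027), and without chicks 3 and 29 RORB at 0 h vs control (0.042) and at 24 h vs 6 h (-0.045), NEUROD1 at 0 h vs control (-0.0094) and RXRG at 6 h vs control (-0.16). Without chicks 3, 9 and 26 they were RORB at 0 h vs control (0.083) and RXRG at 6 h vs control (-0.16). Leaving out 1 chick at a time, RORB ranged from -0.12 to 0.044 at 0 h vs control, -0.036 to 0.074 at 24 h vs 6 h, -0.032 to 0.095 at 6 h vs control and -0.018 to 0.11 at 24 h vs control, NEUROD1 from -0.016 to 0.56 at 0 h vs control, RXRG from -0.16 to 0.31 at 6 h vs control and OTX2 from -0.023 to 0.081 at 6 h vs 0 h. The causes of these shifts were not tested. With 1 to 59 counts per chick for NR2E3 and 19 to 103 for NEUROD1, counting error was largest for these genes, but the spread between chicks was larger, at 38.05% to 54.4% for NEUROD1 against 12.9% to 18.3% from counting.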
